A study of Mus musculus with 55 samples.

Results

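Of the 55421 genes in the deposited count table, 69 were taken as the spliceosome and SR/hnRNP genes of mouse bone marrow stem and progenitor cells. They were chosen by symbol alone: symbols that begin with Srsf and a number, Sf3a or Sf3b and a number, Snrp, Hnrnp, Prpf and a number, or U2af. The symbols matched 73 genes, and 4 whose symbol carries -ps, the mark of a pseudogene, were left out. The 69 genes fell into 20 hnRNP proteins, 13 genes of Sm and other snRNP proteins, 13 PRPF factors, 11 SR proteins, 9 subunits of the SF3A and SF3B complexes and 3 U2AF genes. Snrpert, among the snRNP genes, is annotated as a processed pseudogene without that mark, and 55.7% of its 50-base stretches occur in other genes, most often Snrpe. Sf3b1, Srsf2 and U2af1 were followed in every comparison.

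The study asked how loss of Tet2, which encodes an enzyme that oxidises 5-methylcytosine in DNA, changes blood stem and progenitor cells. RNA of 6 sorted populations was sequenced from wild-type (WT) C57BL/6 mice and from mice labelled Tet2 knockout, which carried floxed Tet2 alleles (Tet2 f/f) and the Mx1-Cre transgene. Mx1-Cre is driven by an interferon-responsive promoter and acts in blood cells and in other cells that respond to interferon. It was induced in mice 4 weeks old with 5 doses of 250 µg poly(I:C), given every other day, and the cells were collected 16 weeks after induction. Whether the WT mice received poly(I:C) was not given in the sources used here. Long-term and short-term haematopoietic stem cells (LT-HSC, ST-HSC), common myeloid progenitors (CMP), granulocyte-monocyte progenitors (GMP), megakaryocyte-erythroid progenitors (MEP) and common lymphoid progenitors (CLP) were each sorted in small pools, of 200 cells by the labels and 300 by the methods. Each population of each genotype had 4 libraries, numbered 2 to 5, save those of WT stem cells, with 3 each (2, 3 and 5), which made 22 WT and 24 Tet2 knockout libraries. The study counts its replicates as mice, while the labels only number the libraries. The other 9 of the 55 samples, a second set of LT-HSC libraries, were not analysed here.

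Splicing removes introns from the primary transcript. The U1 and U2 snRNPs mark the 5' splice site and the branch point, U2AF reads the pyrimidine tract and the AG at the 3' splice site, SF3A and SF3B hold the U2 snRNP on the branch point, and PRPF factors build and remodel the U4/U6.U5 particle that becomes the catalytic centre. The Sm proteins form the ring around the snRNAs, SR proteins bind exonic enhancers and mostly favour inclusion, and hnRNPs coat the transcript and often favour skipping. In human myeloid neoplasms SF3B1, SRSF2 and U2AF1 are recurrently mutated, and such mutations can occur together with TET2 mutations.

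Library totals ran from 50458473 to 102148079 counts (median 70118186.5). Values below are counts-per-million (CPM) after TMM scaling of the library sizes, unless a length is named. The 69 genes together took 1.16% to 1.75% of the counts in the 38 libraries outside CLP and 0.428% to 1.15% in CLP. The CLP libraries stood apart: the 20 most abundant genes took 43.5% to 59.1% of the counts in the 4 WT CLP libraries and 43.4% and 44.1% in Tet2 knockout CLP libraries 4 and 5, against 26.7% and 27.0% in Tet2 knockout CLP libraries 2 and 3 and 15.4% to 25.3% outside CLP. The summed GMP markers reached 13102 CPM in Tet2 knockout CLP library 3, against 39.4 to 3801 CPM in WT CLP, and the summed macrophage markers 28.3 to 195 CPM in Tet2 knockout CLP against 9.79 to 39.6 CPM in WT CLP and at most 32.9 CPM outside CLP. Of the 8 macrophage markers, C1qa, C1qb and Spic were at 0 in CLP of both genotypes, and none separated the genotypes there. Summed HSC markers were at 792 to 1533 CPM in LT-HSC, 523 to 989 CPM in ST-HSC and 301 to 389 CPM in CMP, GMP markers at 3534 to 5450 CPM in CMP and at 32128 to 46398 CPM in GMP, MEP markers at 17235 to 24331 CPM in MEP and CLP markers at 746 to 2788 CPM in CLP. WT CLP library 2 and Tet2 knockout CLP libraries 3, 4 and 5 had a larger sum of GMP than of CLP markers. Tet2 mRNA overlapped between the genotypes in every population. Its mean was lower in Tet2 knockout in ST-HSC (18.7 against 22.6 CPM in WT), CMP (16.2 against 20.9) and MEP (11.01 against 12.3) and higher in LT-HSC, GMP and CLP, with 39.7 to 60.5 CPM against 33.2 to 41.7 CPM in GMP. These are counts of the whole gene, which do not separate a deleted exon from the rest, so they are no check of the deletion. The ribosomal protein genes Rps3a2 and Rps3a3 separated the genotypes in every population, at 8.78 to 50.1 and 6.88 to 31.6 CPM over the WT libraries and 179 to 1121 and 164 to 1050 CPM over the Tet2 knockout libraries. Whether this difference between the library sets bears on the members was not tested.

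The 69 genes were abundant, with a median of 120 CPM over all libraries against 3.88 CPM for the 22429 genes that passed the filter on low counts. Whether this abundance bears on the shares of members called below was not tested. Per kilobase of exon, Snrpb, a protein of the Sm ring, stood highest at 266 CPM per kb. Srsf7 at 257, Snrpe at 235, Snrpg at 232 and Hnrnpa1 at 226 CPM per kb followed. Sf3b6, which lies near the branch point in SF3B, led the SF3 subunits with 101 CPM per kb, U2af1 the U2AF genes with 42.8, and Prpf8, the large protein at the catalytic centre, the PRPF factors with 23.4 CPM per kb. The lowest levels of each family among genes at 1 CPM or more in most libraries belonged to Prpf40b (0.938 CPM per kb), Sf3a2 (2.08), Hnrnpll (2.41), U2af2 (2.46), Srsf4 (7.64) and Snrpc (8.83 CPM per kb). The median of the Sm and snRNP proteins was 80.1 CPM per kb, that of the SR proteins 42.4, of the hnRNPs 24.9, of SF3A and SF3B 24.1, of U2AF 11.4 and of the PRPF factors 8.11 CPM per kb.

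RefSeq promoters (assembly GRCm38.p6, 250 bases before to 50 after the start) were found for 59 of the 69 genes. The stretches before the start are shown for Sf3b1, Srsf2 and U2af1, the genes followed throughout, and for Srsf6, which fell in 3 populations of the Tet2 knockout (below), without bases that GENCODE places in an exon. They lie at chr1:55027482-55027728 (minus strand, Sf3b1), chr11:116853095-116853294 (minus, Srsf2), chr17:31658893-31659014 (minus, U2af1) and chr2:162931258-162931507 (plus, Srsf6). Capitals mark matches, on either strand, to 8 motifs: the E-box CACGTG, the ETS core CCGGAAG, the NRF1 element GCATGCGC, the CCAAT box, the GC box GGGCGG, the CRE core ACGTCA, the TATA box TATAAA and the palindrome TCGCGA.
Sf3b1: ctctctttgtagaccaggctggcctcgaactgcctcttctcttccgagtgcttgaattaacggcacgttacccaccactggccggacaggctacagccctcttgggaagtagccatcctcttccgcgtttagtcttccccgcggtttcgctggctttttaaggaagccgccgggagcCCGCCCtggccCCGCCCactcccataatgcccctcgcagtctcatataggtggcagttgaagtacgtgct
Srsf2: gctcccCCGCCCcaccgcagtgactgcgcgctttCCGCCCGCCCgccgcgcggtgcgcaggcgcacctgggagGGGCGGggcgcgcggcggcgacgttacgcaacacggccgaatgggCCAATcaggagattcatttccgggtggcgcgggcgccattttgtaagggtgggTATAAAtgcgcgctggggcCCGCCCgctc
U2af1: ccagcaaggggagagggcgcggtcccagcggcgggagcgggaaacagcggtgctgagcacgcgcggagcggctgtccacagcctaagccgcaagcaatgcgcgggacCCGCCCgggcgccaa
Srsf6: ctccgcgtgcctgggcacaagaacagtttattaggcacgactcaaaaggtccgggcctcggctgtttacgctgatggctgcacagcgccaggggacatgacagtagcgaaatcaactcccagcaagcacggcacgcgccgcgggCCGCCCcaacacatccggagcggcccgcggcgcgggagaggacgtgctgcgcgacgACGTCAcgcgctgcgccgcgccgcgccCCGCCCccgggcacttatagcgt

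The Sf3b1 stretch held 2 GC boxes, that of Srsf2 5 GC boxes, some of which overlap, with 1 CCAAT and 1 TATAAA, that of U2af1 1 GC box, and that of Srsf6 2 GC boxes and 1 CRE core. Over the full windows, GGGCGG was present in 39 of the 59 members' promoters (66.1%) and in 35.9% of all 27025 promoters of the same length, ACGTCA in 16 (27.1%) and 7.64%, CCGGAAG in 19 (32.2%) and 9.12%, and CCAAT in 29 (49.2%) and 37.9%. CACGTG was in 8 (13.6%) against 7.24%, TCGCGA in 6 (10.2%) against 2.58%, TATAAA in 6 (10.2%) against 14.2% and GCATGCGC in 2 (3.39%) against 2.80%. The members' windows held a median of 25 CpG dinucleotides against 7 over all promoters. A match is a description of letters, not of a bound site.

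The first comparison asked which of these genes differed between Tet2 knockout and WT libraries of the same population. Srsf6, an SR protein that regulates exon inclusion, fell in CMP, GMP and MEP of the Tet2 knockout and Srsf11 fell in the same populations by less. Srsf4 fell in CMP and GMP and U2af1 in GMP and MEP, while Snrpd3, a protein of the Sm ring, rose in CMP and GMP. With a fit per population, edgeR called no member in LT-HSC, ST-HSC or CLP. A call required an adjusted p under 0.05 in edgeR's quasi-likelihood test, with Benjamini-Hochberg adjustment over all genes tested in that population.

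Of 68 members tested in CMP, 2 were called higher and 3 lower, which is 2.94% and 4.41% of them, against 1.71% and 5.18% of all genes. In GMP 2 of 68 were called higher and 7 lower (2.94% and 10.3%), against 1.07% and 5.49% of all genes. In MEP none of 67 was called higher and 4 lower (5.97%), against 0.656% and 5.01% of all genes. The median log2 difference of the members was 0.13 in CMP, 0.01 in GMP and 0.11 in MEP, beside 0.03, 0.03 and 0.05 over all genes tested. DESeq2 called 8 higher and 6 lower in CMP, against 3.75% and 5.75% of all genes with any count, 5 and 7 in GMP, against 2.27% and 4.90%, and 4 and 5 in MEP, against 1.81% and 4.88%. In bulk libraries, fewer cells of a type and less RNA per cell cannot be told apart.

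**Figure D1:**
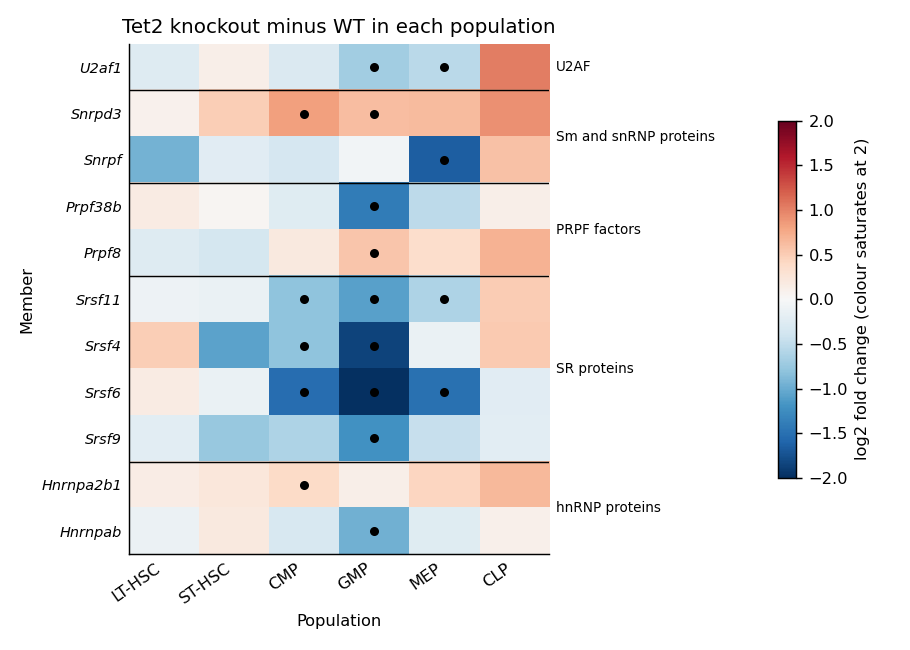
Log2 difference of Tet2 knockout minus WT (colour, saturating at 2, red higher in Tet2 knockout) for the members called in at least 1 population (vertical axis, by family) in the 6 populations (horizontal axis), with black dots on the 18 called differences. The dots lie in CMP, GMP and MEP, with Srsf6 and Srsf11 called lower in all 3.

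Srsf6 (chr2:162931528-162937121, plus strand, mm10) stood at 450, 463, 505 and 455 CPM in the 4 WT CMP libraries and at 181, 145, 161 and 172 CPM in the Tet2 knockout. In GMP it was 651, 655, 462 and 413 CPM in WT and 101.9, 97.4, 82.0 and 71.3 CPM in Tet2 knockout, and in MEP 381, 521, 495 and 531 against 214, 155, 141 and 181 CPM. In these 3 populations every Tet2 knockout library lay below every WT library by a wide margin. The log2 difference was -1.52 ± 0.10 (SE, adjusted p = 3.18e-05) in CMP, -2.67 ± 0.19 (adjusted p = 7.47e-06) in GMP and -1.49 ± 0.15 (adjusted p = 0.000481) in MEP, and each was called without any one of the 8 libraries. In LT-HSC the values were 216, 194 and 200 CPM in WT and 250, 228, 181 and 240 CPM in Tet2 knockout, in ST-HSC 268, 269 and 229 against 266, 231, 217 and 198 CPM. The genotypes overlapped in both stem cell populations, at levels below those of WT CMP, GMP and MEP. In CLP the libraries of one genotype differed by more than the genotypes did, with 302, 325, 51.0 and 113 CPM in WT and 166, 33.2, 323 and 169 CPM in Tet2 knockout.

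**Figure D2:**
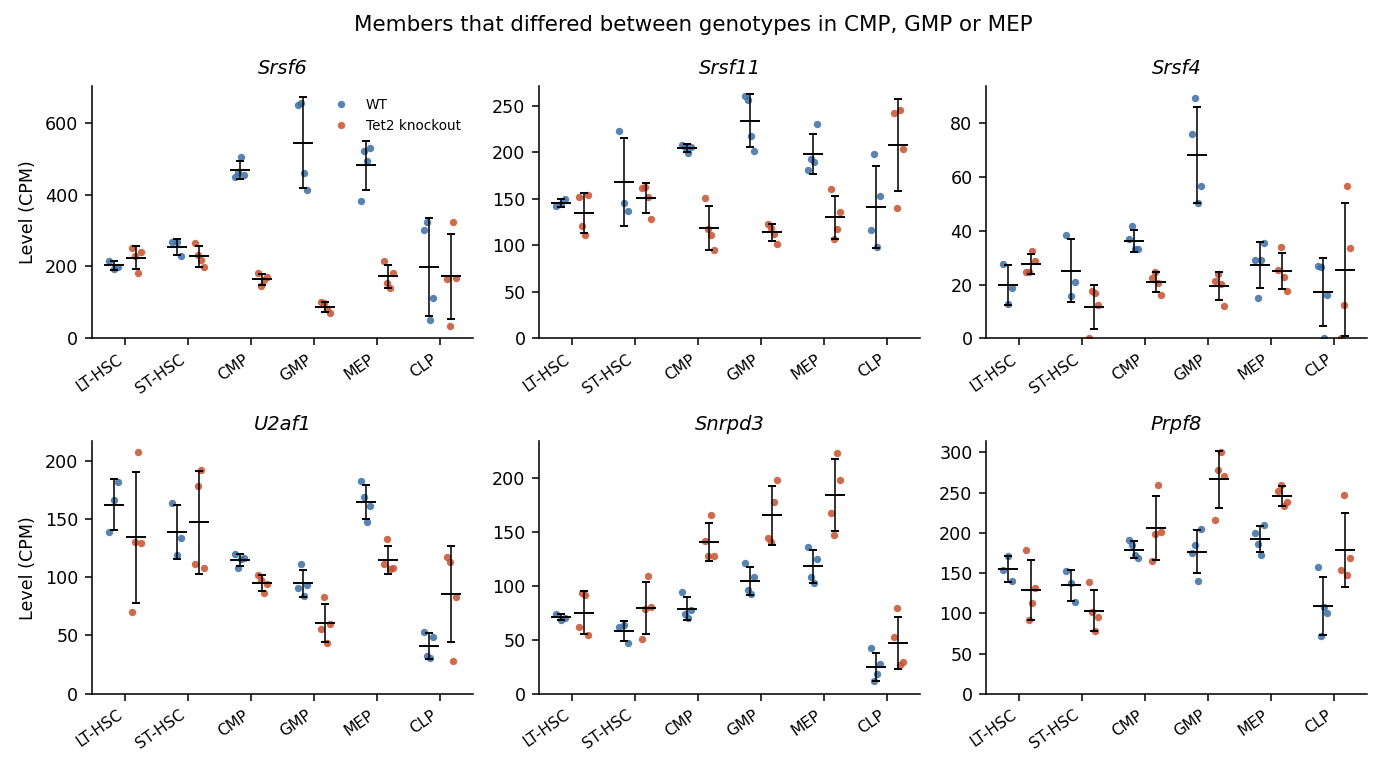
Level (CPM, vertical axis) of 6 members with called differences in each library (points, blue WT, red Tet2 knockout) of the 6 populations, with bars for mean ± SD (n = 4, or 3 in WT LT-HSC and ST-HSC). Srsf6 separates in CMP, GMP and MEP, where the highest Tet2 knockout value is 214 CPM and the lowest WT value 381 CPM, and overlaps in the stem cells.

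Srsf11 (chr3:158010473-158036639, minus strand), an arginine- and serine-rich relative of the SR proteins, gave 208, 206, 199 and 205 CPM in WT CMP and 151, 118, 111 and 94.4 CPM in Tet2 knockout CMP. In GMP it gave 260, 256, 217 and 202 against 123, 119, 112 and 101 CPM, and in MEP 181, 192, 190 and 230 against 160, 107, 117 and 135 CPM. The genotypes did not overlap in any of the 3. It fell by 0.80 ± 0.14 on the log2 scale in CMP (adjusted p = 0.00700), by 1.08 ± 0.12 in GMP (adjusted p = 0.000204) and by 0.62 ± 0.15 in MEP (adjusted p = 0.0386). The calls in CMP and GMP held without any one library, whereas that in MEP held only without Tet2 knockout MEP library 2, with an adjusted p of up to 0.112 in the others. The MEP call was also lost without the filter on low counts and with the replicate block. Srsf4 (chr4:131873617-131901706, plus strand), a long SR protein, lay at 76.1, 89.5, 50.4 and 56.9 CPM in WT GMP and at 21.2, 23.96, 20.1 and 11.9 CPM in the Tet2 knockout, a fall of 1.85 ± 0.25 (adjusted p = 0.000652). In CMP it lay at 36.9, 41.8, 33.1 and 33.2 against 22.5, 24.7, 20.5 and 16.3 CPM, a fall of 0.80 ± 0.17 (adjusted p = 0.0225). The CMP call was lost without any one of 6 of the 8 libraries, with an adjusted p of up to 0.0702. Of the 50-base stretches of Srsf4 transcripts, 39.5% also occur in transcripts of another gene, mainly the antisense Gm12992, so that its counts are less certain.

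Srsf9, an SR protein at low level in these cells, gave 20.6, 9.74, 11.1 and 6.84 CPM in WT GMP and 5.73, 5.49, 5.62 and 4.57 CPM in Tet2 knockout GMP. The groups did not overlap, but the fall of 1.21 ± 0.32 (adjusted p = 0.0479) held without only 1 of the 8 libraries and reached adjusted p = 0.135. The Srsf9 call was also lost without the filter on low counts and with the replicate block. Of the SR proteins, 3 of 10 tested were called lower in CMP, 4 of 11 in GMP and 2 of 10 in MEP, against 5.18%, 5.49% and 5.01% of all genes, and none higher in any population. The median log2 difference of the family was -0.22 in LT-HSC, -0.30 in ST-HSC, -0.42 in CMP, -0.49 in GMP, -0.31 in MEP and -0.07 in CLP. The summed CPM of the family was 3825 to 4092 in WT LT-HSC and 2411 to 3516 in Tet2 knockout LT-HSC, and 4221 to 4387 against 3059 to 3831 in ST-HSC, although edgeR called no single SR gene in either. DESeq2 called Srsf2 in both.

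In CMP, markers of MEP moved with genotype. All 9 of the list were detected, 4 were higher in every Tet2 knockout library than in every WT library and 1 was lower, and their sum was 1478 to 2953 CPM in WT and 4821 to 8876 CPM in Tet2 knockout. Of 26 cycling genes, 10 were higher without overlap in CMP and 1 lower (sums of 3649 to 4775 and 4934 to 5280 CPM). The part of either in the CMP differences was not tested. In GMP the HSC marker sum was 231 to 302 CPM in WT and 364 to 404 CPM in Tet2 knockout, with 1 of the 11 markers higher without overlap, and the MEP marker sum 141 to 204 and 222 to 294 CPM, with 2 of 9 higher. In MEP the late erythroid markers, of which 6 were measured and Slc4a1 was at 0, summed to 154 to 434 CPM in WT and 80.3 to 107 CPM in Tet2 knockout, with 3 lower without overlap. The part of these sums was not tested. The share of mitochondrial counts was 5.94% to 6.57% in WT CMP and 7.85% to 8.37% in Tet2 knockout CMP, 3.64% to 4.60% and 4.74% to 5.09% in GMP, and 6.85% to 9.18% and 8.96% to 9.74% in MEP. The 20 most abundant genes took 19.6% to 21.6% of the counts in WT GMP and 23.4% to 25.3% in Tet2 knockout GMP. The part of either share in the differences was not tested. The immediate early gene Jun, which responds to cell handling, lay at 139 to 224 CPM in WT CMP and 62.1 to 88.3 in Tet2 knockout CMP, and at 279 to 546 against 42.9 to 75.3 CPM in GMP. In MEP it lay at 48.7 to 76.1 against 25.7 to 34.5 CPM, and in ST-HSC the other way, at 90.9 to 117 against 157 to 199 CPM. Its part was not tested either.

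Among the core factors, U2af1 (chr17:31647081-31658892, minus strand), the small U2AF subunit that contacts the AG of the 3' splice site, gave 90.6, 111, 84.2 and 93.6 CPM in WT GMP and 55.6, 82.8, 43.8 and 59.6 CPM in Tet2 knockout GMP. In MEP it gave 182, 169, 147 and 161 against 111, 133, 107 and 108 CPM. The Tet2 knockout libraries lay below all WT libraries in both, narrowly in GMP. U2af1 fell by 0.69 ± 0.18 in GMP (adjusted p = 0.0470) and by 0.53 ± 0.12 in MEP (adjusted p = 0.0270). The GMP call held only without Tet2 knockout GMP library 3 and the MEP call in 2 of 8 such fits, with adjusted p of up to 0.147 and 0.0804. The U2af1 call was also lost without the filter on low counts in GMP and with the replicate block in MEP. In CMP it was 120, 108, 115 and 117 against 102.2, 97.7, 86.6 and 93.7 CPM, a log2 difference of -0.28 ± 0.10 that was not called (adjusted p = 0.134). The stem cells overlapped, with 139, 166 and 182 against 70.2, 130, 207 and 129 CPM in LT-HSC and 164, 119 and 133 against 111, 178, 192 and 108 CPM in ST-HSC. In CLP the order was the other way for 3 of 4 libraries, with 52.6, 32.3, 30.8 and 49.1 CPM in WT and 117, 113, 28.0 and 83.4 CPM in Tet2 knockout (log2 difference 1.02 ± 0.47, not called). Of its 50-base stretches, 21.7% are shared with other genes, most often AC102268.2.

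Snrpd3 (chr10:75517551-75537381, plus strand) gave 94.2, 73.9, 70.1 and 78.1 CPM in WT CMP and 142, 128, 166 and 128 CPM in Tet2 knockout CMP, a rise of 0.82 ± 0.13 (adjusted p = 0.00467) that held without any one library. In GMP it gave 121, 96.7, 92.6 and 108 against 144, 141, 178 and 199 CPM, a rise of 0.62 ± 0.13 (adjusted p = 0.0162) that was lost without WT GMP library 3 or Tet2 knockout GMP libraries 4 or 5, one at a time. In MEP the values were 136, 108, 103 and 125 against 168, 147, 223 and 199 CPM. All Tet2 knockout libraries were higher there too, but the gene was not called. Snrpf, another protein of the Sm ring, fell in MEP from 292, 266, 347 and 299 CPM to 171, 56.6, 39.4 and 117 CPM (-1.65 ± 0.41, adjusted p = 0.0464). That call held without only 1 of the 8 libraries and was lost without the filter on low counts and with the replicate block. Of the 50-base stretches of Snrpf, 89.5% also occur in other genes, most often Ccdc38, which overlaps it on the other strand, as does 4933408J17Rik. Prpf8 (chr11:75486816-75509449, plus strand) rose in GMP from 175, 185, 140 and 204 CPM to 216, 278, 300 and 271 CPM (0.56 ± 0.13, adjusted p = 0.0250). That call was lost with the replicate block and kept in 2 of the 8 fits without a library. Prpf38b, named for the PRP38 family, fell in GMP from 81.7, 78.5, 58.2 and 84.0 CPM to 30.0, 33.1, 33.2 and 21.1 CPM (-1.40 ± 0.18, adjusted p = 0.000436), a call kept in all 8 fits without a library.

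Of the 20 hnRNPs, Hnrnpab, an RNA- and DNA-binding protein, fell in GMP and Hnrnpa2b1, which packages transcripts in the nucleus, rose in CMP. Hnrnpab (chr11:51600100-51606847, minus strand) gave 159, 145, 110 and 107 CPM in WT GMP and 64.2, 75.6, 67.9 and 67.8 CPM in the Tet2 knockout, a difference of -0.96 ± 0.14 (adjusted p = 0.00152) that held without any one library. Hnrnpa2b1 gave 499, 453, 482 and 480 CPM in WT CMP and 611, 578, 666 and 653 CPM in the Tet2 knockout, a difference of 0.38 ± 0.08 (adjusted p = 0.0210). That call held in 3 of 8 fits without a library and was lost with the replicate block. All 18 calls in CMP, GMP and MEP had groups without overlap. The calls were picked by p from the same values, so this is no further evidence. No share of all genes without overlap is given. With 1 fit of all 46 libraries in place of a fit per population, Srsf6 and Srsf11 in CMP and GMP and Srsf6 in MEP were called.

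EdgeR, with a fit per population, called no SF3A or SF3B subunit, while DESeq2 called Sf3a1 in ST-HSC and MEP, Sf3b3 in CMP and GMP, Sf3a2 in GMP and Sf3b2 in MEP. Neither called Sf3b1 (chr1:54985169-55027481, minus strand), the scaffold of SF3B that clamps the branch helix. Sf3b1 gave 558, 466, 573 and 544 CPM in WT CMP and 550, 569, 591 and 517 CPM in Tet2 knockout CMP, a log2 difference of 0.05 ± 0.09 (adjusted p = 0.852). In GMP it gave 459, 482, 500 and 487 against 646, 513, 555 and 551 CPM (0.19 ± 0.10, adjusted p = 0.396), and in MEP 435, 458, 503 and 532 against 520, 560, 661 and 534 CPM (0.23 ± 0.10, adjusted p = 0.293). The groups did not overlap in GMP and did in MEP. In LT-HSC the values were 556, 657 and 550 against 609, 690, 633 and 483 CPM (0.05 ± 0.18), and in ST-HSC 588, 746 and 716 against 633, 853, 571 and 730 CPM (0.06 ± 0.18). In CLP they were 512, 817, 785 and 411 against 745, 524, 757 and 634 CPM (0.02 ± 0.32). All of these groups overlapped. A two-sided exact permutation test on log2 CPM gave p = 0.0286 in GMP, the smallest possible with these group sizes, and p = 0.0571 in MEP, which became 0.0858 and 0.137 after adjustment over the 12 tests of Sf3b1 and Srsf2. The summed CPM of the 9 subunits was higher in every Tet2 knockout library in CMP (1307 to 1504 in WT, 1640 to 1725), GMP (1573 to 1718, 1830 to 2032) and MEP (1404 to 1729, 1771 to 2024).

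Srsf2 (chr11:116849901-116853094, minus strand), an SR protein that binds exonic enhancers, had lower values in the Tet2 knockout stem cells, which did not pass the test over all genes. It gave 325, 415 and 387 CPM in WT LT-HSC and 211, 214, 246 and 219 CPM in Tet2 knockout LT-HSC (-0.74 ± 0.17, adjusted p = 0.445). In ST-HSC it gave 359, 423 and 418 against 221, 244, 270 and 305 CPM (-0.59 ± 0.16, adjusted p = 0.415), and in MEP 507, 468, 463 and 535 against 460, 305, 338 and 434 CPM (-0.37 ± 0.15, adjusted p = 0.239). The Tet2 knockout libraries were all below the WT libraries in these 3 populations. The exact permutation test gave p = 0.0286 in each of the 3, the smallest possible, and 0.0858 after adjustment over the 12 tests. In CMP the values were 383, 398, 375 and 383 against 412, 246, 314 and 407 CPM (-0.17 ± 0.16), in GMP 269, 238, 314 and 236 against 255, 174, 186 and 184 CPM (-0.45 ± 0.16) and in CLP 182, 211, 181 and 222 against 311, 181, 241 and 279 CPM (0.30 ± 0.25). These groups overlapped. Of the 50-base stretches of Srsf2, 20.7% are shared with other genes, and Mettl23 and Mfsd11 overlap it on the other strand.

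**Figure D3:**
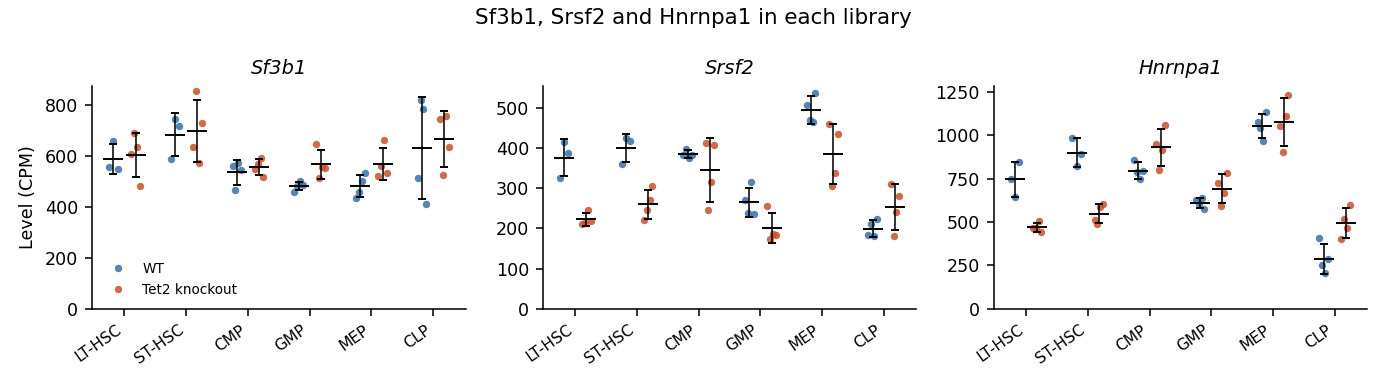
Level (CPM, vertical axis) of Sf3b1, Srsf2 and Hnrnpa1 in each library (points, blue WT, red Tet2 knockout) by population, with bars for mean ± SD. Srsf2 and Hnrnpa1 lie lower in every Tet2 knockout library of LT-HSC and ST-HSC, while the genotypes of Sf3b1 overlap there.

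Hnrnpa1 (chr15:103240432-103246692, plus strand), an abundant hnRNP that antagonises SR proteins at many exons, was the other member with the smallest p in the stem cells. It gave 747, 642 and 846 CPM in WT LT-HSC and 463, 467, 503 and 440 CPM in Tet2 knockout LT-HSC (-0.66 ± 0.17, adjusted p = 0.521), and in ST-HSC 984, 820 and 892 against 511, 490, 586 and 604 CPM (-0.69 ± 0.15, adjusted p = 0.358). In CMP it gave 859, 786, 745 and 793 against 950, 797, 916 and 1057 CPM and in CLP 408, 251, 205 and 286 against 400, 516, 462 and 599 CPM (0.75 ± 0.27). The groups were apart in both stem cell populations and overlapped in CMP and CLP. Of its 50-base stretches, 28.2% occur in transcripts of 20 other genes. In LT-HSC none of 69 members was called, against 0.0245% of all genes, with 5 members at an unadjusted p under 0.05, against 5.16%, and 3 called by DESeq2 (Hnrnpa1, Srsf2 and Prpf6), against 1.21%. In ST-HSC none of 69 was called, against 0.0185%, with 7 at an unadjusted p under 0.05, against 6.13%, and 4 called by DESeq2 (Hnrnpa1, Srsf2, Hnrnpr and Sf3a1), against 1.83%. With 1 fit of all 46 libraries edgeR called Hnrnpa1 in both, against 0.121% of all genes in LT-HSC and 0.112% in ST-HSC. The share of mitochondrial counts was 8.02% to 9.50% in WT and 8.82% to 14.5% in Tet2 knockout LT-HSC, and 8.73% to 9.02% and 10.0% to 13.1% in ST-HSC, and the 20 most abundant genes took 16.2% to 17.5% and 20.2% to 24.1% of the counts in LT-HSC and 15.4% to 16.7% and 20.4% to 22.1% in ST-HSC. The part of either share in these values was not tested.

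In CLP none of 67 members was called by edgeR, against 0.00766% of all genes, with 5 at an unadjusted p under 0.05, against 3.65%, and 2 called by DESeq2, Hnrnpdl and Snrpb2, against 2.56%. With 1 fit of all 46 libraries edgeR called 10 in CLP, these 2 among them, against 7.38% of all genes. Hnrnpdl, a paralogue of Hnrnpd, gave 114, 114, 104 and 143 CPM in WT CLP and 363, 200, 247 and 238 CPM in Tet2 knockout CLP (1.10 ± 0.27, adjusted p = 0.668). Snrpb2, which binds U2 snRNA, gave 44.4, 36.3, 31.8 and 49.8 against 65.3, 59.1, 74.3 and 76.3 CPM (0.72 ± 0.31). Both genes were apart between the groups. Of the 67 members, 53 had a positive log2 difference in CLP, with a median of 0.37 beside 0.07 over all genes. The shares taken by the top 20 genes and the marker sums given above differed between CLP libraries, as did Jun, at 579 to 1451 CPM in WT and 130 to 541 CPM in Tet2 knockout, and Fos, at 6020 to 12140 and 786 to 3504 CPM. The share of mitochondrial counts was 2.41% to 4.58% in WT CLP and 3.11% to 12.5% in Tet2 knockout CLP. The part of any of these in the members' median was not tested.

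Whether the genotype difference varied between populations was tested with an F test of the interaction over the 46 libraries. It was called for 6 of 69 members (8.70%), against 2.65% of all genes. They were Hnrnpa1 (adjusted p = 1.97e-05), Srsf11 (0.00183), Hnrnpdl (0.00328), Srsf6 (0.00386), Snrpb2 (0.0454) and Srsf2 (0.0463). Without the CLP libraries, an alternative chosen after seeing the data, Hnrnpa1, Srsf11 and Srsf6 were still called (adjusted p = 2.34e-05, 0.0269 and 9.87e-10), Hnrnpab and Prpf38b were added (against 2.53% of all genes), and Hnrnpdl, Snrpb2 and Srsf2 were not called (0.698, 0.491 and 0.490). Hnrnpa1 was near WT in the 3 myeloid progenitors, with log2 differences of 0.21, 0.14 and 0.02 in CMP, GMP and MEP, and at -0.66 and -0.69 in LT-HSC and ST-HSC, whereas Srsf6 differed the other way round. The Srsf6 call with CLP included was lost without the Tet2 knockout libraries numbered 5 (adjusted p = 0.0637), that of Hnrnpdl without the WT libraries numbered 2 (0.0527), and that of Srsf2 in all leave-outs except that of the Tet2 knockout libraries numbered 3. The Snrpb2 call was lost in 6 of 8 leave-outs (adjusted p of up to 0.190). Without the filter on low counts Snrpb2 and Srsf2 were not called (0.0730 and 0.0519), nor was Srsf2 with RLE scaling (0.0698). Sf3b1 and U2af1 were not called (adjusted p = 1.0 and 0.0707), though DESeq2 called U2af1 (0.0132).

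The second comparison followed the members from stem cells to progenitors within each genotype, over the steps LT-HSC to ST-HSC, ST-HSC to CMP, CMP to GMP, CMP to MEP and ST-HSC to CLP. In WT an F test found a difference among the 6 populations for 47 of 69 members (68.1%), against 44.6% of all genes, and in Tet2 knockout for 44 (63.8%), against 40.2%. The 34 called in both are 72.3% of the first and 77.3% of the second list. The Sm and snRNP proteins had the most calls for their number, 12 of 13 in both genotypes (Snrpert, the pseudogene, among those in WT only), and the PRPF factors the fewest, 6 of 13 in WT and 5 in Tet2 knockout. In WT the smallest p belonged to Snrpd2 (adjusted p = 3.30e-08), Srsf1 (3.74e-08), Snrpb2 (1.15e-07), Snrpg (1.31e-07), Sf3b4 (1.67e-07) and Sf3b6 (1.69e-07). In Tet2 knockout they belonged to Hnrnpa1 (7.96e-07), Srsf10 (9.60e-06), Snrpb2 (2.44e-05), Snrpa1 (2.81e-05), Srsf3 (6.12e-05) and Sf3b6 (6.33e-05). Sf3b1 was not called in either (adjusted p = 0.0778 and 0.283), Srsf2 in both (9.95e-07 and 0.00342), and U2af1 and Srsf6 in WT (4.04e-07 and 0.00549) but not in Tet2 knockout (0.0557 and 0.0679). The cycling genes, whose sum was 1065 to 3174 CPM in the stem cells and 3649 to 6306 CPM in CMP, GMP and MEP, moved along the same steps, and their part was not tested.

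**Figure D4:**
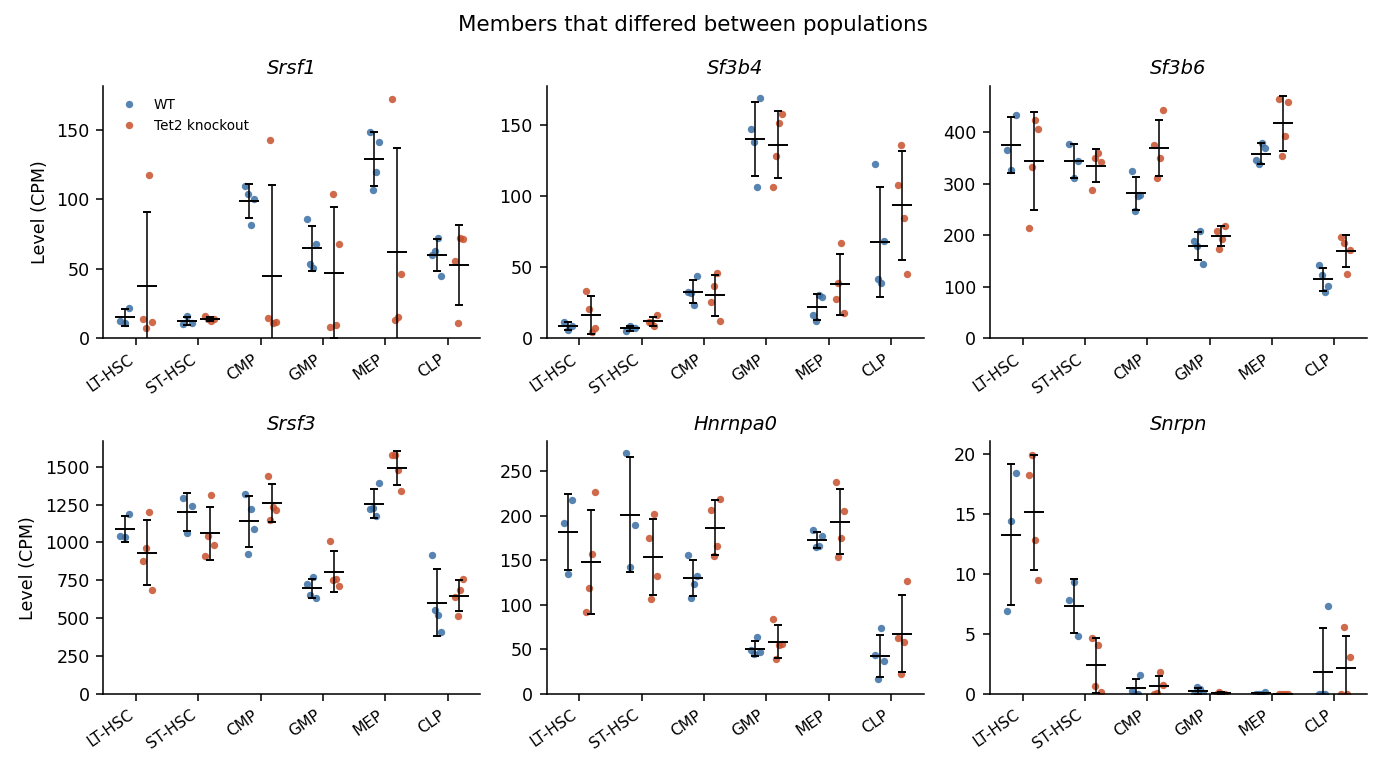
Level (CPM, vertical axis) of 6 members in each library (points, blue WT, red Tet2 knockout) by population, with bars for mean ± SD. Sf3b4 is highest in GMP (107 to 169 CPM in WT), Sf3b6, Srsf3 and Hnrnpa0 are lower in GMP than in CMP, Snrpn is at most 1.82 CPM in CMP, GMP and MEP, and Srsf1 splits into high and low libraries within several Tet2 knockout groups.

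Between LT-HSC and ST-HSC no member was called by edgeR in WT, against 0.175% of all genes, or in Tet2 knockout, against 0.118%. At an unadjusted p under 0.05 there were 1 and 0 members, against 8.85% and 8.57% of all genes. DESeq2 called 0 in both, against 2.98% and 2.99% of all genes. Snrpd2, a protein of the Sm ring, came nearest in WT (-0.34 ± 0.14, adjusted p = 0.511), followed by Hnrnpa3 (-1.05 ± 0.51, adjusted p = 0.570). Prpf18, a second-step factor, came nearest in Tet2 knockout (-0.49 ± 0.25, adjusted p = 0.647), followed by Srsf12, at a mean of 0.0507 CPM in LT-HSC and 1.64 CPM in ST-HSC. From ST-HSC to CMP in WT, 3 of 69 members were called higher and 1 lower (4.35% and 1.45%), against 4.25% and 2.05% of all genes. Srsf1, the founding SR protein, was at 10.3, 15.9 and 10.9 CPM in WT ST-HSC and at 110, 104, 81.4 and 101 CPM in WT CMP, a rise of 2.99 ± 0.28 (adjusted p = 1.73e-06). It was the largest rise of the step among the members called. Sf3b4, the SF3B subunit that reaches upstream of the branch point, rose from 5.22, 8.58 and 7.48 CPM to 32.5, 31.7, 23.5 and 43.6 CPM (2.20 ± 0.41, adjusted p = 0.00217), Snrpf by 2.18 ± 0.43 (adjusted p = 0.00342), and Srsf5, an SR protein, fell by 0.75 ± 0.14 (adjusted p = 0.00250). Of the 50-base stretches of Sf3b4, 45.3% are shared, mainly with Gm7935. In Tet2 knockout 7 were called higher and none lower (10.1%), against 2.43% and 1.52%: Snrpf, Hnrnpul1, Snrpa, Hnrnpl, Prpf8, Srsf10 and Hnrnpa1, with rises of 2.11, 1.13, 1.08, 1.05, 0.98, 0.78 and 0.75. The calls of Hnrnpul1, Snrpa and Hnrnpl were lost without the filter on low counts and each held in 17 of 24 fits without a library, and that of Hnrnpul1 was lost with RLE scaling. The Snrpf call held in 18 of 24 fits without a library (adjusted p of up to 0.0917) and the Prpf8 call in 21. DESeq2 called 7 higher and 2 lower there, against 4.18% of all genes each. The CLP libraries enter the same fit. Without them, an alternative chosen after seeing the data, 15 members were called in WT at this step, 22 from CMP to GMP and 16 from CMP to MEP, in place of 4, 9 and 4, against 18.0%, 15.8% and 20.1% of all genes in the same fits.

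Srsf1 was not called at this step in Tet2 knockout, whose 4 CMP libraries gave 14.9, 143, 10.7 and 11.47 CPM. The gene was spread in this way in other Tet2 knockout groups as well, with 8.06, 104, 9.22 and 67.8 CPM in GMP, 172, 13.2, 15.6 and 46.6 CPM in MEP and 13.6, 7.20, 118 and 11.52 CPM in LT-HSC. In each of these, some libraries lay at 7.20 to 15.6 CPM and others at 46.6 to 172 CPM. In WT the libraries of one population stayed together, at 86.2, 53.6, 50.8 and 68.1 CPM in GMP, 148, 107, 120 and 142 CPM in MEP and 12.5, 10.7 and 22.1 CPM in LT-HSC. Srsf1 did not pass the genotype test in CMP, but did once Tet2 knockout CMP library 3 was left out, and likewise in MEP without Tet2 knockout MEP library 2. These libraries held the highest Srsf1 values of their groups, at 143 and 172 CPM. Leaving them out thus sets the outcome, and no genotype difference is concluded from it.

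From CMP to GMP the SF3B subunits moved apart. Sf3b4, Sf3b2 and Sf3b3 rose and Sf3b6 fell, in both genotypes, which share no library at this step. The Sf3b3 calls (0.74 ± 0.19, adjusted p = 0.0302 in WT, and 0.92 ± 0.26, adjusted p = 0.0450 in Tet2 knockout) were lost without the filter on low counts and held in 15 of 22 and 4 of 24 fits without a library, and that in Tet2 knockout was lost with RLE scaling. Of 69 members, 3 were called higher and 6 lower in WT (4.35% and 8.70%), against 2.10% and 2.71% of all genes, and 6 higher and 4 lower in Tet2 knockout (8.70% and 5.80%), against 1.98% and 1.93%. DESeq2 called 8 higher and 7 lower in WT, against 3.40% and 4.15%, and 9 and 7 in Tet2 knockout, against 3.89% and 4.09%, where RLE scaling gave 4 and 5, against 1.88% and 2.25%. Sf3b4 was at 147, 138, 107 and 169 CPM in WT GMP (2.12 ± 0.37, adjusted p = 0.00151) and rose from 25.7, 36.7, 45.6 and 12.3 CPM in Tet2 knockout CMP to 106, 128, 151 and 158 CPM in Tet2 knockout GMP (2.24 ± 0.55, adjusted p = 0.0247). Sf3b2, a large SF3B subunit, rose from 117, 130, 106 and 135 CPM to 193, 207, 177 and 226 CPM in WT (0.75 ± 0.15, adjusted p = 0.00454) and from 141, 151, 138 and 123 CPM to 228, 248, 251 and 253 CPM in Tet2 knockout (0.89 ± 0.20, adjusted p = 0.0145). Sf3b6 fell from 325, 248, 276 and 277 CPM to 189, 178, 209 and 144 CPM in WT (-0.62 ± 0.14, adjusted p = 0.0140), and in Tet2 knockout from 375, 312, 349 and 443 CPM to 209, 174, 192 and 219 CPM (-0.83 ± 0.19, adjusted p = 0.0164). None of these groups overlapped. Hnrnpa0, an hnRNP that binds AU-rich elements, fell from 156, 108, 123 and 133 CPM to 49.1, 44.2, 63.6 and 46.7 CPM in WT (-1.32 ± 0.31, adjusted p = 0.0158), and by 1.60 ± 0.38 in Tet2 knockout (adjusted p = 0.0213). Srsf3, a small SR protein, fell by 0.68 ± 0.17 in WT and 0.58 ± 0.16 in Tet2 knockout, and Srsf2 by 0.51 ± 0.12 (adjusted p = 0.0124) and 0.72 ± 0.19 (adjusted p = 0.0406). The Tet2 knockout calls of Srsf3 and Srsf2 held in 11 and 14 of 24 fits without a library, and that of Srsf3 was lost without the filter on low counts. These 7 genes were 77.8% of those called in WT and 70.0% of those called in Tet2 knockout. The Tet2 knockout count fell to 0 without Tet2 knockout CMP library 5 or Tet2 knockout GMP library 3. No share of all genes is given for those fits, so this fall cannot be set against that of other genes.

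The members called at this step in one genotype were Srsf7 (-0.59 ± 0.09) and U2af1l4 (-1.13 ± 0.32), a U2AF1-like gene, in WT, the latter lost in 16 of 22 fits without a library, without the filter on low counts and with the replicate block, and Sf3a2 (3.91 ± 0.97), Sf3a1 (1.43 ± 0.36), both subunits of SF3A, and Hnrnph2 (0.73 ± 0.20) in Tet2 knockout. Without the filter on low counts Sf3a1 and Hnrnph2 were not called, and Hnrnph2 was not with RLE scaling or in 16 of 24 fits without a library. Sf3a2 was at 1.03, 2.45, 3.53 and 0.961 CPM in Tet2 knockout CMP and 17.1, 35.7, 35.4 and 27.3 CPM in Tet2 knockout GMP. In WT GMP it gave 9.57, 20.04, 7.35 and 16.3 CPM. The F test of the interaction did not call Sf3a2 (adjusted p = 0.974). All 9 members called at this step in WT and all 10 called in Tet2 knockout had the same sign in the other genotype. From CMP to MEP, 4 of 69 members were called higher in WT and none lower (5.80%), against 2.75% and 6.14% of all genes, all of them snRNP proteins. Snrpg was at 353, 334, 302 and 316 CPM in WT CMP and at 624, 644, 584 and 606 CPM in WT MEP (0.87 ± 0.15, adjusted p = 0.000820), Snrpd1 rose by 0.69 ± 0.19, Snrpd2 by 0.61 ± 0.12 and Snrpb2 by 0.55 ± 0.15. The first 3 are proteins of the Sm ring. The calls of Snrpd1 and Snrpb2 were lost without the filter on low counts, and in 6 and 3 of 22 fits without a library. The median over the members was 0.12 and over all genes -0.12, and the rises above are given without that shift. In Tet2 knockout none was called by edgeR, against 4.13% of all genes, with 6 members at an unadjusted p under 0.05, against 16.7%, and 4 called by DESeq2, against 8.39%. Hnrnpc, which packages long transcripts, came nearest among members detected in both groups (0.42 ± 0.15, adjusted p = 0.138). Snrpn, whose p was smaller, was at 0 in all 4 Tet2 knockout MEP libraries and at a mean of 0.650 CPM in Tet2 knockout CMP.

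From ST-HSC to CLP most members called in WT fell: 5 of 69 were higher and 23 lower there (7.25% and 33.3%), against 11.2% and 16.9% of all genes, and 9 higher and 12 lower in Tet2 knockout (13.0% and 17.4%), against 10.2% and 12.8%. With RLE scaling the Tet2 knockout had 11 higher and 10 lower, against 22.8% of all genes in either direction. The median of the members was -0.42 in WT and -0.08 in Tet2 knockout, beside -0.10 over all genes in both. With RLE scaling it was -0.27 in WT, beside 0.0 over all genes, and 9.404e-05 in Tet2 knockout, beside -0.0038. Among the members called in WT the largest falls were those of Hnrnpul2 (-2.27 ± 0.47), Hnrnpa0 (-2.21 ± 0.33), U2af1 (-1.74 ± 0.18), Snrpb2 (-1.72 ± 0.16), Snrpd1 (-1.69 ± 0.21) and Hnrnpa1 (-1.63 ± 0.15), and the rises those of Sf3b4 (3.26 ± 0.43), Srsf1 (2.30 ± 0.27), Prpf6 (1.28 ± 0.35), Prpf31 (1.18 ± 0.23) and Sf3b2 (0.62 ± 0.16). Prpf6 and Prpf31 hold the tri-snRNP together. U2af1 went from 164, 119 and 133 CPM in WT ST-HSC to 52.6, 32.3, 30.8 and 49.1 CPM in WT CLP, and Srsf2 by -0.98 ± 0.12 (adjusted p = 8.10e-06). Neither overlapped. Among the members called in Tet2 knockout Hnrnpa0, Snrpe, Sf3b6, Snrpd2, Snrpd1 and Snrpb2 had the largest falls (-1.21, -1.13, -1.001, -0.99, -0.96 and -0.86) and Sf3a2, Sf3b4, Snrpf, Srsf9, Hnrnpul1 and Prpf19 the largest rises (3.94, 2.96, 1.72, 1.38, 1.27 and 1.22). Srsf9 and Prpf19 were not called with the replicate block, Prpf19 not without the filter on low counts, and Hnrnpa0, Hnrnpul1 and Prpf19 not without Tet2 knockout CLP libraries 2 and 3. Sf3a2 there was carried by library 3, at 28.4 CPM against 0.566 to 3.95 CPM in the others. U2af1 and Srsf2 were not called in the Tet2 knockout (-0.80 ± 0.35 and -0.06 ± 0.19). The 12 genes called in both genotypes were 42.9% of the WT and 57.1% of the Tet2 knockout list, and the CLP libraries are those with the high top-gene shares given above. EdgeR called Sf3b1 at no step in either genotype, with log2 differences of -0.36 to 0.23. U2af1 was called at none of the other 4 steps, with -0.20, -0.28, -0.25 and 0.48 in WT and 0.16, -0.65, -0.59 and 0.28 in Tet2 knockout for ST-HSC minus LT-HSC, CMP minus ST-HSC, GMP minus CMP and MEP minus CMP. Srsf2 was called only from CMP to GMP among these, with 0.11, -0.06 and 0.32 in WT and 0.25, 0.39 and 0.17 in Tet2 knockout at the others.

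By family, the summed Sm and snRNP proteins were highest in MEP, at 3649 to 4033 CPM in WT, and lowest in CLP, at 954 to 1618 CPM. Snrpn, an imprinted Sm protein gene best known from neurons, was at 6.89 to 18.5 CPM in WT LT-HSC and 9.49 to 19.95 CPM in Tet2 knockout LT-HSC, at 4.85 to 9.30 CPM in WT ST-HSC and 0.177 to 4.63 CPM in Tet2 knockout ST-HSC, and at most 1.82 CPM in CMP, GMP and MEP.

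**Figure D5:**
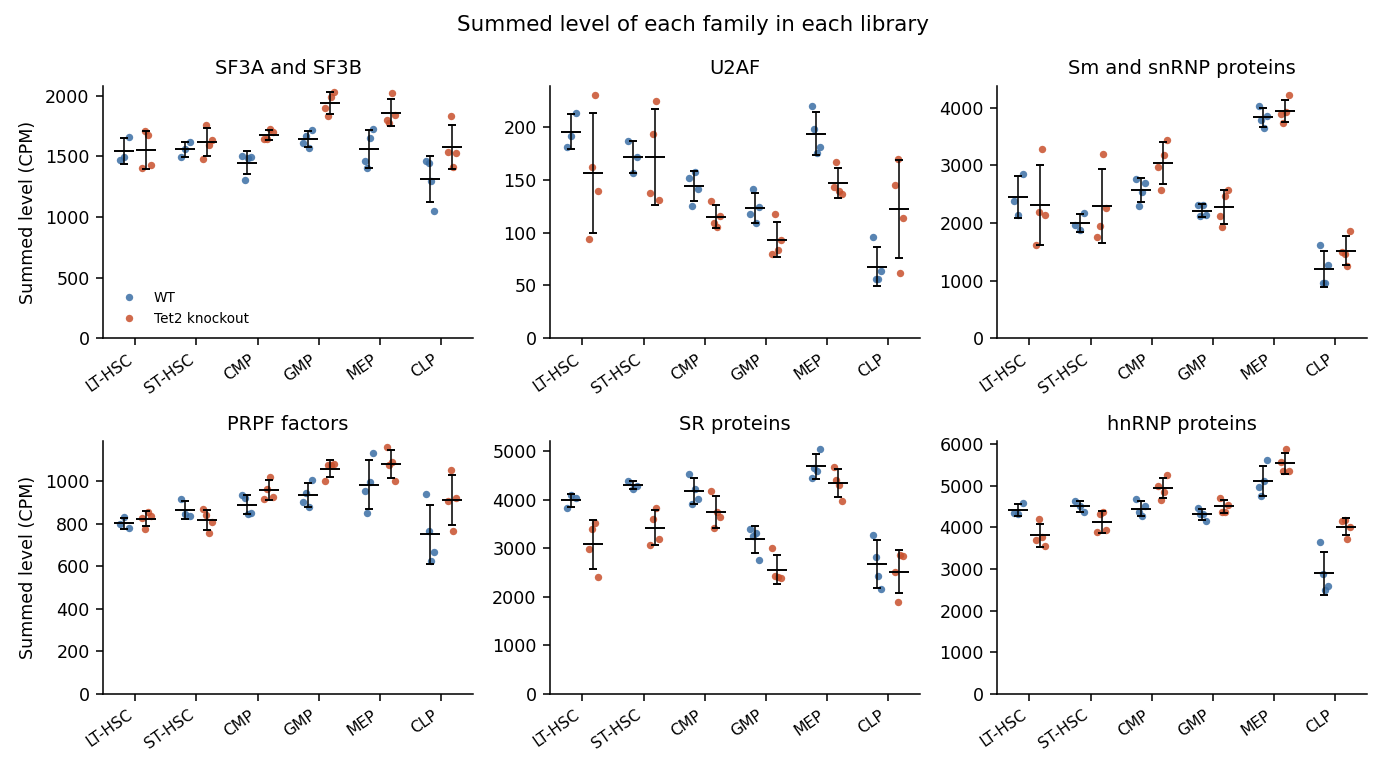
Summed level (CPM, vertical axis) of each of the 6 families in each library (points, blue WT, red Tet2 knockout) by population, with bars for mean ± SD. The Sm and snRNP sum peaks in MEP and is lowest in CLP, and the SR sum is lower in every Tet2 knockout library of LT-HSC and ST-HSC. The hnRNP sum is also lower in every Tet2 knockout library of LT-HSC and overlaps in ST-HSC.

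Other splicing genes were read from 2 lists. Of 56 further spliceosome genes, such as Lsm and Snrnp genes, 55 were measured. In the genotype comparison 2 were called higher and 3 lower in CMP, 1 and 5 in GMP and 1 and 3 in MEP against 1.71% and 5.18%, 1.07% and 5.49%, and 0.656% and 5.01% of all genes, and none in LT-HSC, ST-HSC or CLP. Their median log2 difference was -0.13 in LT-HSC, -0.02 in ST-HSC, 0.03 in CMP, 0.05 in GMP, 0.07 in MEP and 0.13 in CLP. Usp39, which acts in the maturation of the tri-snRNP, lay at 111 to 115 CPM in WT CMP and 22.1 to 24.8 CPM in Tet2 knockout CMP (-2.29 ± 0.10, adjusted p = 5.45e-06), and fell in GMP (-2.67 ± 0.17) and MEP (-2.31 ± 0.18) too. Lsm2, of the ring around U6 snRNA, fell in the same populations (-2.004 ± 0.18, -1.29 ± 0.16 and -2.06 ± 0.13), Lsm4 in CMP and MEP (-1.49 ± 0.24 and -3.15 ± 0.60) and Htatsf1 in GMP (-1.41 ± 0.16). Snrnp70, the U1 protein, rose in GMP and MEP (0.75 ± 0.14 and 0.89 ± 0.19), and Snrnp27 and Isy1 rose in CMP (0.62 ± 0.16 and 0.57 ± 0.11). From ST-HSC to CMP in WT, 8 of them were called higher and 2 lower, against 4.25% and 2.05% of all genes, among them Lsm4 (3.41 ± 0.58), Lsm2 (3.20 ± 0.44) and Usp39 (2.62 ± 0.32).

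Of 56 auxiliary splicing regulators, 1 was called higher and 5 lower in CMP, none higher and 6 lower in GMP, 1 and 4 in MEP, beside the same shares of all genes, and none in LT-HSC, ST-HSC or CLP, with medians of 0.05, 0.02 and 0.08 in CMP, GMP and MEP. Rbm17, a factor of 3' splice site choice, fell in all 3 (-1.93, -3.10 and -1.65), Elavl1 in GMP and MEP (-2.92 and -2.98), Pspc1, a paraspeckle protein, in CMP and GMP (-1.01 and -2.39), and Raly in CMP and MEP (-1.85 and -1.70). Rnps1 rose in CMP (0.85) and Syncrip in MEP (0.48). Of the 2 lists, 4 and 3 genes were called in the interaction test, against 2.65% of all genes.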

How the data were processed

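RNA of sorted bone marrow cells was amplified by a SMART-seq method, which does not mark strand (a kit per the labels, a modified protocol per the paper's methods). Per the paper's methods the authors trimmed reads with Trim Galore and aligned them to mm10 with HISAT2. The submitters' processing notes give Trim Galore 0.6.7, HISAT2, DESeq2 and the builds mm10 and mm9, and the counting program and annotation are not given in the sources used here. The deposited values are raw whole-number counts per gene, used as deposited, and no sample column was left unmapped. Groups came from the labels. Values of 1 member, which is included in the counts, are not reported here.

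Counts were tested with edgeR 4.0.16 (R 4.3.3): filterByExpr, TMM scaling, quasi-likelihood test, prior count 2, Benjamini-Hochberg adjustment over all genes tested, and a call at an adjusted p under 0.05. Genotype was tested within each population, the population steps and the F test within each genotype, and the interaction over all 46 libraries. Sf3b1 and Srsf2 were also tested with two-sided exact permutation tests on log2 CPM. The scripts were tested on simulated data. Standard errors are the unshrunken log2 difference divided by the square root of F.

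Alternatives were DESeq2 1.42.0, RLE scaling, no filter on low counts, a replicate block, 1 fit of 46 libraries, an added 2-fold threshold (the study's own rule), and each library left out in turn. Leaving out CLP libraries was added after seeing the data. The members, lists and named genes were chosen with earlier results of these data known. The genes named were Sf3b1, Srsf2 and U2af1 in each comparison, up to 6 called members per direction with the largest log2 difference, the 2 with the smallest p where none was called, the 6 with the smallest p in F tests, the highest and lowest per kb of each family, and up to 3 called genes per direction of each other list. Srsf6, Srsf1, Hnrnpa1, Sf3a2 and Snrpn values outside that rule were chosen after they were seen.

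Loci, overlaps and shared 50-base stretches are from GENCODE vM21 (mm10). No 2 libraries held identical values.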

Additional observations from a re-analysis of the deposited data

Results flagged for a closer look

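In 210 groups of 4 libraries, 9 single libraries stood apart from the rest of their group by Dixon's test, which chance does in about 5% of groups. Srsf1, the SR protein that was high in WT progenitors and low in stem cells, was at 118 CPM in Tet2 knockout LT-HSC library 4 against 7.20 to 13.6 CPM in the other 3, and at 143 CPM in Tet2 knockout CMP library 3 against 10.7 to 14.9 CPM. Srsf2 stood at 255 CPM in Tet2 knockout GMP library 2 against 174 to 186 CPM, and Srsf5 at 596 CPM in the same library against 381 to 398 CPM. The summed SR proteins of that library were 2999.6 CPM against 2380 to 2437 CPM, and its summed PRPF factors 999.6 CPM against 1078 to 1083 CPM. U2af1 was at 133 CPM in Tet2 knockout MEP library 3 against 107 to 111 CPM. Sf3a2 was at 28.4 CPM in Tet2 knockout CLP library 3, the library with the high GMP markers, against 0.566 to 3.95 CPM. The summed SF3A and SF3B subunits were 1307 CPM in WT CMP library 3 against 1483 to 1504 CPM.

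The genotype difference varied between populations, by edgeR's F test of the interaction, for 6 members: Hnrnpa1 (adjusted p = 1.97e-05), which was lower without overlap in both Tet2 knockout stem cell populations, Srsf11 (0.00183) and Srsf6 (0.00386), which fell in CMP, GMP and MEP, Hnrnpdl (0.00328) and Snrpb2 (0.0454), which were higher without overlap in Tet2 knockout CLP, and Srsf2 (0.0463). The first 3 were also called without CLP.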

How the results depend on the processing

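Srsf6 in CMP, GMP and MEP was called under every alternative that was run. The counts of called members moved as follows, and the causes were not tested. DESeq2 gave 3 in place of 0 in LT-HSC, 4 in place of 0 in ST-HSC, 14 in place of 5 in CMP, 9 in place of 4 in MEP, 2 in place of 0 in CLP, 15 in place of 9 for GMP minus CMP and 11 in place of 4 for MEP minus CMP in WT (11.2% of all genes), and 16 in place of 10 and 4 in place of 0 for those steps in Tet2 knockout. With 1 fit of 46 libraries there were 1, 1, 2, 2, 1 and 10 in LT-HSC, ST-HSC, CMP, GMP, MEP and CLP, against 0.121%, 0.112%, 1.34%, 1.01%, 1.97% and 7.38% of all genes. With a 2-fold threshold there were 1, 5 and 2 in CMP, GMP and MEP, 3, 0 and 17 for GMP minus CMP, MEP minus CMP and CLP minus ST-HSC in WT, and 4, 4 and 10 for CMP minus ST-HSC, GMP minus CMP and CLP minus ST-HSC in Tet2 knockout. Without the filter on low counts there were 2 in MEP and 2 for MEP minus CMP in WT, and 4 and 6 for CMP minus ST-HSC and GMP minus CMP in Tet2 knockout. Without CLP libraries (chosen after seeing the data) there were 15, 22 and 16 for CMP minus ST-HSC, GMP minus CMP and MEP minus CMP in WT, and 19 and 2 for the last steps in Tet2 knockout (13.2% and 10.4% of all genes). Without Tet2 knockout CLP libraries 2 and 3 those last counts were 17 and 1. No share of all genes is given for the counts with a 2-fold threshold, without the filter on low counts or without these libraries. Those counts therefore do not show whether the members moved more than other genes. For the counts with a share, the part of the members' higher abundance was not tested.

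Over all genes that passed the filter, same-numbered libraries of the 2 genotypes did not deviate together (median r = 0.0096 over 22 pairs, 0 of them over 0.1). Whether they share a batch was not tested. Same-numbered libraries of 1 genotype in different populations gave a median r of 0.0258 over 111 pairs (highest 0.106, 1 over 0.1), and those with other numbers -0.0085. With the replicate block 1 member, Srsf6, was called in MEP in place of 4, and U2af1, Snrpf and Srsf11 were not. The calls of Hnrnpa2b1 in CMP and of Prpf8 and Srsf9 in GMP were lost too. No share of all genes is given for this fit, so these losses cannot be set against those of other genes. U2af1 in ST-HSC had a log2 difference of -0.0687 with the block in place of 0.11. The other genotype counts under the replicate block were within 1.5 times the count given.

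With 1 library left out, the count was 3 to 6 in CMP (3 without WT library 3, 4 or 5 or Tet2 knockout library 4 or 5), 5 to 9 in GMP (5 without Tet2 knockout library 4 or 5) and 1 to 4 in MEP. It was 4 to 8 for CMP minus ST-HSC (8 without WT CLP 4), 5 to 14 for GMP minus CMP and 2 to 9 for MEP minus CMP in WT (14 without WT CLP 4, 9 without WT CLP 3), 2 to 7, 0 to 13 and 0 to 1 for these steps in Tet2 knockout (2 without Tet2 knockout ST-HSC 3), and 3 to 7 for the interaction (3 without the WT libraries numbered 2 or the Tet2 knockout libraries numbered 5). Both F tests (42 to 52 in WT, 40 to 49 in Tet2 knockout) and CLP minus ST-HSC (26 to 33 and 14 to 26) stayed within 1.5 times. No share of all genes is given for the fits with 1 library left out, so these counts cannot be set against those of other genes.

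Differences near 0, none of them called, changed sign. For Sf3b1 the genotype difference in CLP was -0.0151 with RLE scaling, and CLP minus ST-HSC was 0.0474 with DESeq2 and 0.0736 with RLE scaling in WT and 0.0034 with DESeq2 in Tet2 knockout. For Srsf2 CLP minus ST-HSC in Tet2 knockout was 0.0322 with DESeq2 and 0.0278 with RLE scaling. With 1 library left out, the genotype difference of Sf3b1 ran from -0.0164 to 0.134 in LT-HSC, -0.0486 to 0.149 in ST-HSC, -0.0176 to 0.0784 in CMP and -0.146 to 0.162 in CLP, and that of U2af1 from -0.0415 to 0.266 in ST-HSC. The steps of Sf3b1 ran from -0.245 to 0.0781 for CLP minus ST-HSC in WT, and in Tet2 knockout from -0.0028 to 0.116 for GMP minus CMP, -0.0424 to 0.0784 for MEP minus CMP and -0.174 to 0.0227 for CLP minus ST-HSC. In Tet2 knockout U2af1 ran from -0.038 to 0.442 for ST-HSC minus LT-HSC and Srsf2 from -0.182 to 0.0733 for CLP minus ST-HSC. The median over all genes lay more than 0.1 from 0 in some fits: 0.11 with DESeq2 in the ST-HSC genotype comparison, -0.13 with RLE scaling for CMP minus ST-HSC in Tet2 knockout, and -0.12 with TMM and with RLE scaling for MEP minus CMP in WT.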
